A study of Mus musculus with 18 samples.

Results

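The genes described here are 34 nuclear genes of mitochondrial fuel oxidation in mouse heart, 20 of fatty acid uptake and beta oxidation and 14 of pyruvate entry and the citric acid cycle. They were taken from a list by the gene symbol of the array platform, and the spots of a symbol were averaged after each array was centred on its median. All 34 could be tested, among 10272 tested units of which 6945 were named genes. Mice had spent 1, 2 or 4 weeks in chronic constant hypoxia, called CCH, in chronic intermittent hypoxia, called CIH, or as controls. Every one of the 9 groups had 2 arrays, so each condition had 6 and the series 18. By its labels, each array carried cDNA from a male heart in the dye Cy5 against cDNA from a female heart in Cy3, both from the same condition and duration. The labels give no strain, age or oxygen level. Whether both arrays of a group stand for different animals is not stated, and p-values then measure array spread, which may be technical.

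The heart draws most of its energy from fatty acids. Lipoprotein lipase (Lpl) releases them from circulating lipoproteins, the membrane protein Cd36 takes them up, and the carnitine system (Cpt1a, Slc25a20, Cpt2) carries them into mitochondria. There the acyl-CoA dehydrogenases, the trifunctional protein and other enzymes shorten the chain step by step to acetyl-CoA, while the electron transfer flavoprotein passes the electrons on. The pyruvate dehydrogenase complex makes acetyl-CoA from glucose-derived pyruvate, and the citric acid cycle oxidizes acetyl-CoA from both sources. In low oxygen, hearts are known to shift fuel use away from fatty acids and towards glucose.

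Values are log2 ratios, male over female heart on the same array, so 0 means equal signal in the sexes, and a positive value means more signal in the male. A change between conditions is therefore a change of the male-to-female ratio, and which sex moved cannot be read from it. The sign of the ratio is not stated in the labels and was taken from the Y-linked gene Eif2s3y, which lay between 0.9966 and 2.28 on 17 of 18 arrays. On the array labelled CIH 4 weeks replicate 1 it was -0.03, so its labels as male over female are not borne out by this gene. The labels put the male heart in Cy5 on all 18 arrays, so sex and dye cannot be told apart in a mean ratio. Correlations between arrays over all spots ran from -0.53 (control 4 weeks replicate 1 with CCH 2 weeks replicate 1) to 0.74. Of 153 pairs, 12 were under -0.3. Spots with a value numbered 20489 to 24512 on arrays of 1 week, 15802 to 19720 at 2 weeks and 12650 to 17904 at 4 weeks. The title of CIH 1 week replicate 1 gives 1 week of CIH where its sources name 2 weeks of CCH, and control 2 weeks replicate 1 has a code that starts with 1, as the control arrays of 1 week do. All 3 arrays were kept and grouped by title, and the counts of called genes over all arrays and between 2 weeks and 1 week, the array overlaps and the correlations are given with and without them. A ratio carries no level, and 2 of 15 cardiomyocyte markers could be tested, so the tissue label could not be checked.

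The RefSeq promoter table (GRCm38.p6) held 30 of the 34 genes, and the 250 bases before the start of each were searched on both strands. The first sequence is shown because the subunit genes of the trifunctional protein, Hadha and Hadhb, lie head to head with 272 bases between their starts. The others belong to Pdha1, Sucla2 and Acads, whose ratios passed the test between 2 weeks and 1 week of hypoxia. Capitals mark GCGTG, a core letter string of hypoxia-inducible factor sites, also where it reads CACGC on the other strand, and in Sucla2 the nuclear respiratory factor 1 string, GCGC and TGCGC with any base between. The Hadhb window, chr5:30155003-30155252 on the plus strand, held none of the strings searched.
Hadhb: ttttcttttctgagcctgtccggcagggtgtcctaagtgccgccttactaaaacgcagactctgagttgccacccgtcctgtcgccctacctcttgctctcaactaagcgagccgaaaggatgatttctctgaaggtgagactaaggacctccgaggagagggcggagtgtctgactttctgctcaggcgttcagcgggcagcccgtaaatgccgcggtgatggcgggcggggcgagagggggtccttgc
Pdha1 (chrX:160138431-160138680, minus strand): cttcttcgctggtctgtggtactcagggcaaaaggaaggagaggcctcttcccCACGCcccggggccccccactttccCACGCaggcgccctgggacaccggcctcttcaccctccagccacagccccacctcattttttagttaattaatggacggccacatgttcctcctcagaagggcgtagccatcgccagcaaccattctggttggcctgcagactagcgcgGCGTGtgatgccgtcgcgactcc
Sucla2 (chr14:73552536-73552785, plus strand): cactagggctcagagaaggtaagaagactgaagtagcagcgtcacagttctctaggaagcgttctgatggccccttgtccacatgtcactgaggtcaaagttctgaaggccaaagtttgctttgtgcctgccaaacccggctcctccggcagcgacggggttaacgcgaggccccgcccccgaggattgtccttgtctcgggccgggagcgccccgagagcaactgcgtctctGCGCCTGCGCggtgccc
Acads (chr5:115119347-115119596, minus strand): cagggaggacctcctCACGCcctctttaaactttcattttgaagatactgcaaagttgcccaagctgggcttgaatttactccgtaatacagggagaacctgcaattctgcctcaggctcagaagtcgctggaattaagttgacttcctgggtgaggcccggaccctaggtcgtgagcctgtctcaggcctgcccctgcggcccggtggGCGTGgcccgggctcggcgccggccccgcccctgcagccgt
GCGTG stood in 14 of the 30 promoters (46.7%), against 30.9% of 27025 genes with a promoter in the table. The related string ACGTG stood in 5 (16.7%), against 18.5% of all. Nuclear respiratory factor 1 letters stood in Etfb, Etfdh and Sucla2 (10%), against 4.23% of all genes. The estrogen-related receptor string AAGGTCA was in Acadm alone among the 30 (3.33%, against 4.70%), and the PPAR direct repeat, AGGTCA given again after 1 free base, was in 0 of 30, against 0.0407%. AAGGTCA can overlap the direct repeat, and ACGTG can overlap GCGTG. These matches are descriptions of letters and not of binding.

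On single arrays the pathway medians mostly went together. They had the same sign on 15 of 18 arrays, and the citric acid cycle median lay above the fatty acid median on 14. On CCH arrays the fatty acid medians were -0.20 and -0.36 at 1 week, 0.02 and 0.12 at 2 weeks, and -0.05 and -0.29 at 4 weeks. On CIH arrays they were -0.10 and -0.19 at 1 week, 0.39 and 0.22 at 2 weeks, and 0.34 and -0.36 at 4 weeks. Control arrays gave 0.41 and -0.08 at 1 week, -0.10 and -0.61 at 2 weeks, and -0.34 and -0.09 at 4 weeks. The highest and the lowest fatty acid medians of the series were both on control arrays.

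The citric acid cycle genes can be read on the same arrays. Their medians on CCH arrays were -0.53 and -0.08 at 1 week, 0.31 and 0.32 at 2 weeks, and 0.13 and -0.10 at 4 weeks. The CIH arrays gave 0.11 and 0.01 at 1 week, 0.48 and 0.49 at 2 weeks, and 0.41 and -0.29 at 4 weeks. In controls they were 0.28 and -0.06 at 1 week, -0.12 and -0.70 at 2 weeks, and -0.19 and -0.05 at 4 weeks. All 4 hypoxic arrays of week 2 lay above 0 for both pathways, and both control arrays of week 2 below it. Arrays of a group differed with a pooled SD of 0.26 for either pathway. The 2 arrays of CIH at 4 weeks lay on opposite sides of 0 for both pathways, and the higher is the array labelled replicate 1.

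**Figure D1:**
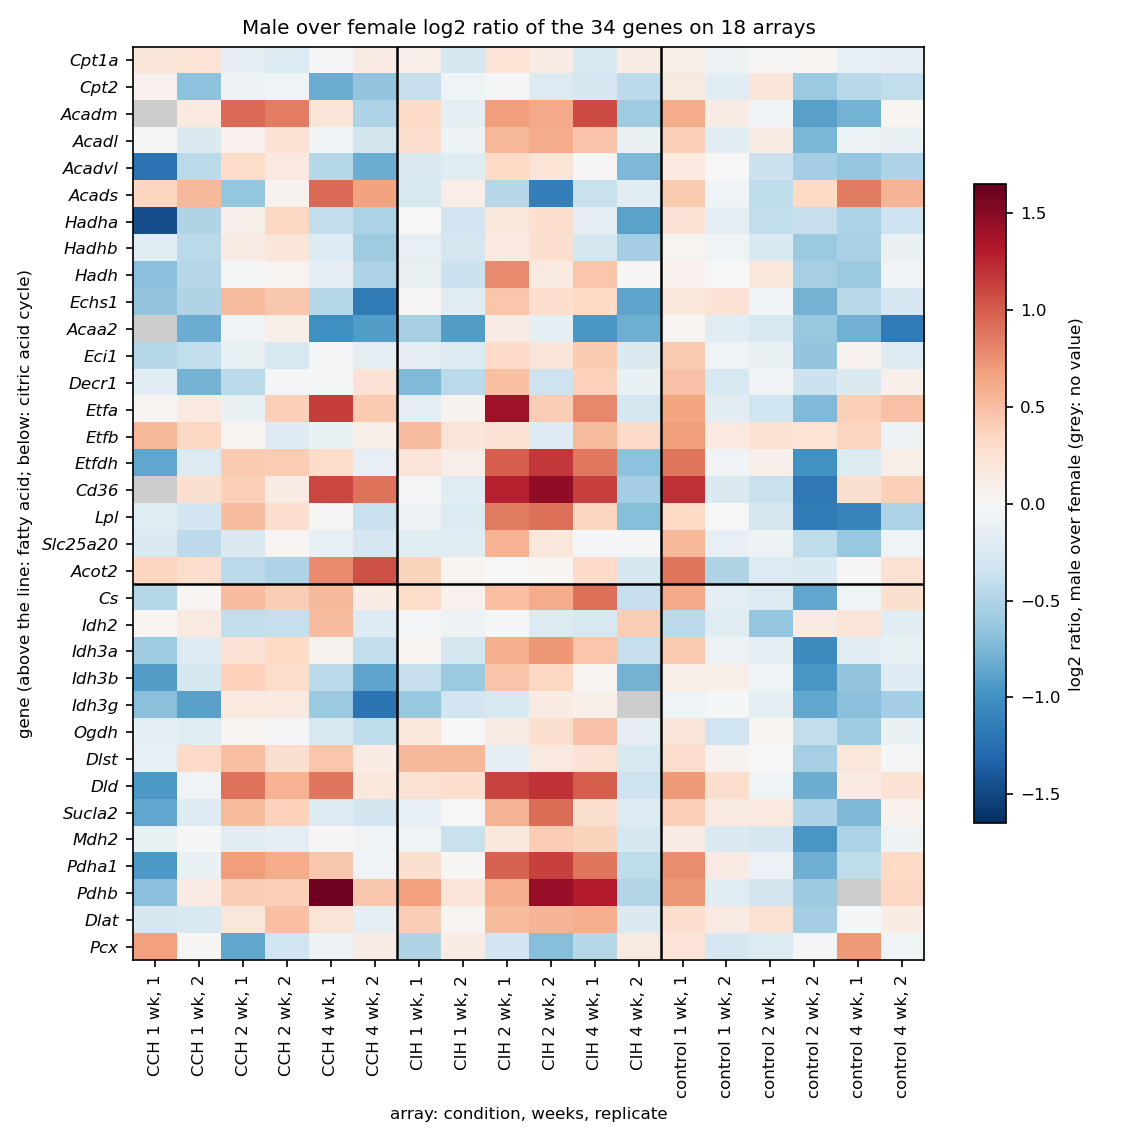
Log2 ratio of male over female for the 34 genes (rows, fatty acid genes above the line, citric acid cycle genes below) on the 18 arrays (columns, CCH, CIH and control, each at 1, 2 and 4 weeks); red is higher in the male heart, blue lower, grey no value. Columns tend to be red or blue across both pathways, as in CIH at 2 weeks and control 2 weeks replicate 2.

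**Figure D2:**
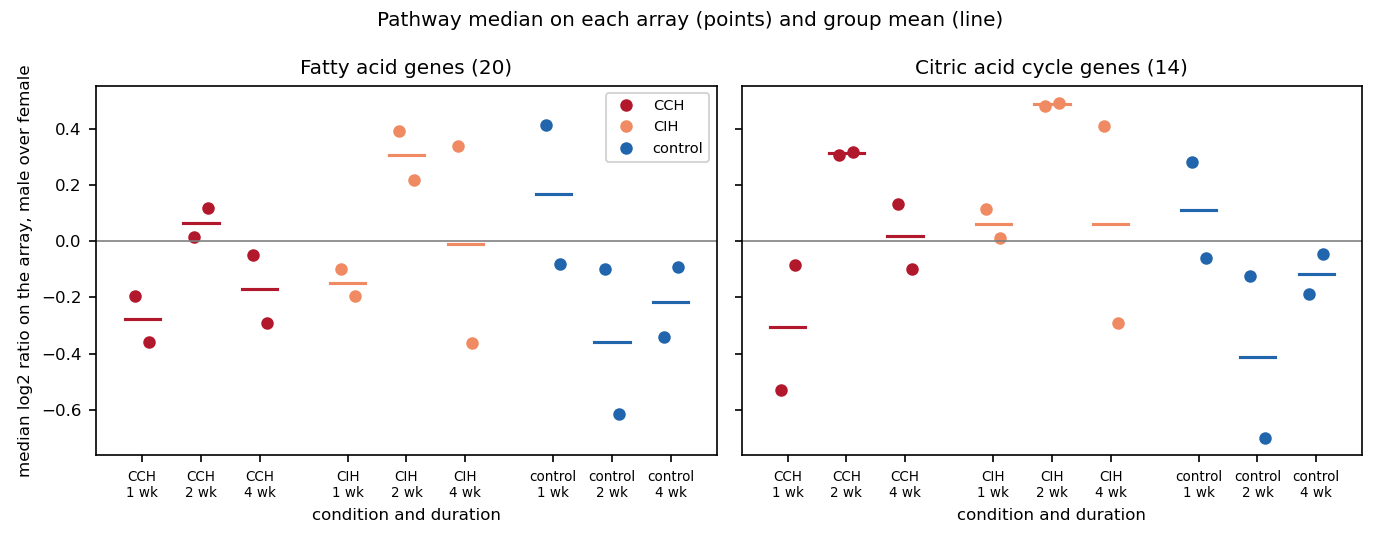
Median log2 ratio, male over female, of the 20 fatty acid genes (left) and the 14 citric acid cycle genes (right) on each array (points), with the mean of each group (line), for CCH, CIH and control at 1, 2 and 4 weeks. Arrays of hypoxic hearts at 2 weeks lie above 0 in both panels, control arrays of 2 weeks below 0.

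Ratios averaged over all 18 arrays were tested with limma (Benjamini-Hochberg adjusted p under 0.05). Of the 34 genes, 10 had a mean that differed from 0, 3 above 0 and 7 below. That is 29.4% of the genes, near the 27.7% of all units called in this comparison (8.99% higher, 18.7% lower), and the medians were near 0 (-0.09 for the fatty acid genes, -0.01 for the citric acid cycle genes, -0.04 for all units). The 7 lower genes were Cpt2, Acadvl, Hadha, Hadhb and Acaa2 of the fatty acid pathway and the isocitrate dehydrogenase subunits Idh3b and Idh3g. The 3 higher ones were Cd36, Etfb and Dld. Sex and dye cannot be told apart in these means, since the male heart was in Cy5 on every array. Fewer cells of a type and less RNA per cell cannot be told apart in such tissue ratios. The 5 leukocyte and macrophage markers that could be tested all had ratios called below 0 over the same arrays (median -0.37). Their part in the result was not tested.

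Acaa2, the mitochondrial thiolase that splits off acetyl-CoA at the end of each round, had the lowest ratio of the 34. It ran from -1.01 through a median of -0.82 to 0.09 on 5 CCH arrays, from -0.96 through -0.68 to 0.14 on CIH arrays, and from -1.17 through -0.45 to 0.03 on control arrays. The ratio was below 0 on 14 of 17 arrays, in each condition alike. Its mean was -0.54 ± 0.06 (SE), a 0.686-fold ratio (adjusted p = 9.5e-05).

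Acadvl, the very long-chain acyl-CoA dehydrogenase that starts the spiral, ran from -1.21 through -0.46 to 0.31 on CCH arrays, from -0.74 through -0.09 to 0.33 on CIH arrays, and from -0.63 through -0.43 to 0.16 on control arrays. The 3 ranges overlapped. The mean was -0.28 ± 0.06 (SE, adjusted p = 0.00737), below 0 on 12 of 18 arrays. Cpt2, the carnitine palmitoyltransferase of the inner membrane, ran from -0.82 through -0.37 to 0.08 on CCH arrays, from -0.44 through -0.25 to -0.03 on CIH arrays, and from -0.61 through -0.30 to 0.20 on control arrays. It was below 0 on all 6 CIH arrays and on 15 of 18 in all, with a mean of -0.27 ± 0.07 (SE, adjusted p = 0.00882).

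Both subunits of the trifunctional protein, which hydrates, oxidizes and cleaves long chains, had a mean ratio below 0. Hadha, the alpha subunit, ran from -1.47 through -0.45 to 0.34 on CCH arrays, from -0.88 through -0.09 to 0.27 on CIH arrays, and from -0.52 through -0.36 to 0.24 on control arrays (mean -0.27 ± 0.07 SE, adjusted p = 0.0116). Hadhb, the beta subunit, ran from -0.59 through -0.20 to 0.20 on CCH arrays, from -0.56 through -0.21 to 0.28 on CIH arrays, and from -0.61 through -0.18 to 0.05 on control arrays (mean -0.19 ± 0.05 SE, adjusted p = 0.0163). Each was below 0 on 13 of 18 arrays. A spot that carries Hadhb together with its pseudogene was not used.

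In the citric acid cycle, Idh3g and Idh3b encode the gamma and beta subunits of the NAD-dependent isocitrate dehydrogenase. Idh3g, on the X chromosome, ran from -1.201 through -0.65 to 0.16 on CCH arrays, from -0.62 through -0.26 to 0.13 on 5 CIH arrays, and from -0.85 through -0.35 to -0.02 on control arrays. Its mean was -0.35 ± 0.07 (SE, adjusted p = 0.00266), and all 6 control arrays were below 0. Idh3b ran from -0.92 through -0.35 to 0.38 on CCH arrays, from -0.77 through -0.18 to 0.46 on CIH arrays, and from -0.96 through -0.14 to 0.10 on control arrays. It had a mean of -0.25 ± 0.08 (SE, adjusted p = 0.0278), below 0 on 11 of 18 arrays. The other X-linked gene of the list, Pdha1, had a mean of 0.19 and was not called.

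Mean ratios above 0 were called for Etfb, the beta subunit of the electron transfer flavoprotein, Cd36, the fatty acid translocase, and Dld. Dld is the dihydrolipoamide dehydrogenase shared by the pyruvate and oxoglutarate complexes. Etfb ran from -0.21 through 0.08 to 0.54 on CCH arrays, from -0.21 through 0.28 to 0.52 on CIH arrays, and from -0.08 through 0.24 to 0.69 on control arrays, and its mean of 0.22 ± 0.06 (SE, adjusted p = 0.0142) was positive on 14 of 18 arrays. Cd36 varied most widely, from 0.14 through 0.39 to 1.10 on 5 CCH arrays, from -0.56 through 0.55 to 1.47 on CIH arrays, and from -1.18 through 0.02 to 1.1995 on control arrays. Its mean was 0.35 ± 0.12 (SE, adjusted p = 0.0477), and the call was lost in 13 of the 17 cases of leaving out an array. Dld ran from -0.94 through 0.37 to 0.90 on CCH arrays, from -0.34 through 0.64 to 1.1975 on CIH arrays, and from -0.82 through 0.19 to 0.71 on control arrays. It had a mean of 0.31 ± 0.09 (SE, adjusted p = 0.0273) and lost the call in 7 such cases, Idh3b in 6. Leaving out CIH 4 weeks replicate 2 moved the count of called genes to 16. Without the array labelled CIH 4 weeks replicate 1 the count was 8, and Cd36 (adjusted p = 0.0845) and Dld (adjusted p = 0.0552) were not called. Without the 2 arrays of conflicting labels it was 7, and Etfb, Cd36 and Dld were not called.

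**Figure D3:**
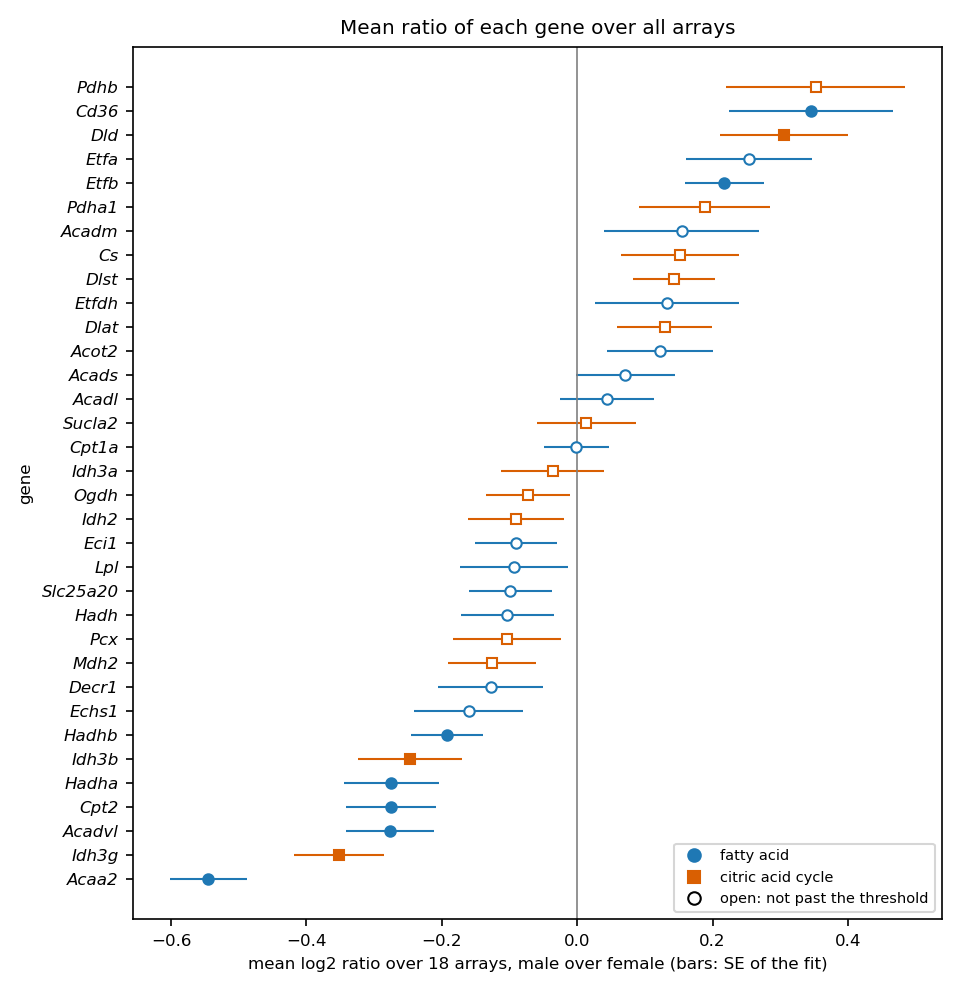
Mean log2 ratio over 18 arrays, male over female, of each of the 34 genes (circles, fatty acid; squares, citric acid cycle; bars, SE of the fit; filled, limma adjusted p under 0.05). Acaa2 lies lowest at -0.54, and the filled symbols are 7 below 0 and 3 above.

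Within conditions, 4 of the 34 genes were called lower on CCH arrays (Acaa2 -0.59, Idh3g -0.51, Acadvl -0.41, Hadha -0.41) against 10.8% of all units called (7.89% lower), and 2 on CIH arrays (Acaa2 -0.54, Dld 0.58) against 12.1% (3.73% higher, 8.37% lower). The CCH count was 1 without CCH 2 weeks replicate 1 or replicate 2, and 2 without CCH 1 week replicate 2 or either CCH array of 4 weeks. The CIH count was 10 without CIH 4 weeks replicate 2, and 1 without either CIH array of 1 week, CIH 2 weeks replicate 2, CIH 4 weeks replicate 1 or CCH 1 week replicate 2. On control arrays 0 of 34 passed limma's adjusted threshold, where 0.00974% of all units did, and 10 had an unadjusted p under 0.05 (9.15% of all units).

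CCH minus control, averaged over the 3 durations, asks whether constant hypoxia shifted the male-to-female ratio. No gene of the 34 was called by limma (0 of all units, 0%), and 1 had an unadjusted p under 0.05, against 6.32% of all units. That gene was Lpl, the lipase that frees fatty acids at the vessel wall, which ran from -0.36 through a median of -0.09 to 0.51 on CCH arrays and from -1.16 through -0.40 to 0.33 on control arrays. The ranges overlapped, and the difference was 0.44 ± 0.20 (SE, adjusted p = 0.749). Next came Dlst, the succinyltransferase of the oxoglutarate complex (0.26 ± 0.15, adjusted p = 0.749), and Cd36 (0.49 ± 0.30, adjusted p = 0.749). The median difference was -0.03 for the fatty acid genes, 0.11 for the citric acid cycle genes and -0.04 for all units.

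For CIH minus control, 0 of the 34 genes were called by limma (0.00974% of all units), and 6 had an unadjusted p under 0.05 (17.6%, against 12.7% of all units). Acads, the short-chain acyl-CoA dehydrogenase, ran from -1.13 through -0.32 to 0.10 on CIH arrays and from -0.42 through 0.38 to 0.85 on control arrays, with all 6 CIH arrays below the mean of the control arrays. The difference was -0.67 ± 0.18 (SE, adjusted p = 0.0822). Lpl ran from -0.71 through 0.14 to 0.91 on CIH arrays, against -1.16 through -0.40 to 0.33 on control arrays, a difference of 0.64 ± 0.20 (SE, adjusted p = 0.133). Ogdh, the dehydrogenase subunit of the oxoglutarate complex, ran from -0.17 through 0.16 to 0.49 on CIH arrays and from -0.58 through -0.22 to 0.20 on control arrays (0.35 ± 0.15, adjusted p = 0.351).

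The citric acid cycle genes had a positive CIH difference in 13 of 14 and a median of 0.33, the fatty acid genes in 15 of 20 and a median of 0.16. The median over all units was -0.01. Both Acads and Lpl were called without control 2 weeks replicate 1 (adjusted p = 0.031 and 0.0414), whose label is in doubt, and Lpl without CIH 4 weeks replicate 2 (0.0498). Without the array labelled CIH 4 weeks replicate 1, Acads differed by -0.64 (adjusted p = 0.23) and Lpl by 0.46 (adjusted p = 0.406). The 5 erythroid markers that could be tested had a median CIH difference of -1.28, 4 of 5 negative and 0 called, and their part in these values was not tested. CCH and CIH are set against the same control arrays.

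CCH minus CIH compares both hypoxias without controls. Limma called 0 of the 34 genes (0.00974% of all units), and 4 had an unadjusted p under 0.05, against 9.28% of all units. Acads ran from -0.64 through 0.45 to 0.94 on CCH arrays and from -1.13 through -0.32 to 0.10 on CIH arrays, a difference of 0.71 ± 0.18 (SE, adjusted p = 0.159). Under 28 alternatives, among them regrouping or leaving out arrays of doubtful labels, the Acads difference ran from 0.54 to 0.82. Hadh, the dehydrogenase of medium and short hydroxyacyl chains, ran from -0.69 through -0.31 to 0.05 on CCH arrays, against -0.36 through 0.08 to 0.78 on CIH arrays (-0.45 ± 0.17, adjusted p = 0.363). Idh3g differed by -0.37 ± 0.17 (adjusted p = 0.532). The difference was negative for 29 of the 34 genes. Medians were -0.14 for the fatty acid genes, -0.26 for the citric acid cycle genes and -0.03 for all units. Without any 1 array in turn, those of doubtful labels included, the fatty acid median ran from -0.28 to -0.09. The citric acid cycle median ran from -0.39 to -0.11. The erythroid markers had a median of 1.03 (4 of 5 positive, 0 called). Both cardiomyocyte markers tested were negative (median -0.14, 0 called). The part of these cells in the difference was not tested. With both hypoxias pooled against controls, 0 genes were called (0% of all units), 2 had an unadjusted p under 0.05 (11.1% of all units), and Lpl led with 0.54 ± 0.17 (adjusted p = 0.361).

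Calls in a contrast were made between durations of hypoxia. Taking CCH and CIH together, the male-to-female ratio at 2 weeks differed from that at 1 week in 10 of the 34 genes, 9 higher and 1 lower. Of all units 10.9% were called (4.67% higher, 6.25% lower). At an unadjusted p under 0.05 there were 19, against 36.1% of all units. Each pathway held 5 of the 10, namely Lpl, Acadvl, Hadha, Acaa2 and Acads, and Pdha1, Dld, Idh3b, Idh3g and Sucla2. The median difference was 0.48 for the fatty acid genes, 0.57 for the citric acid cycle genes and -0.02 for all units. These calls rest on 4 arrays a side and are sensitive to each of them, as given after the values. Arrays of the 2 durations also differed without overlap in spots with a value (20489 to 24512 at 1 week, 15802 to 19720 at 2 weeks, controls included). The part of this in the step was not tested.

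At the point of entry, Lpl was at 0.51, 0.28, 0.86 and 0.91 on the CCH and CIH arrays of week 2, against -0.20, -0.32, -0.08 and -0.22 in week 1. All 4 arrays of week 2 lay above all 4 of week 1, and the difference was 0.85 ± 0.24 (SE, 1.80-fold, adjusted p = 0.0421). Cd36 was at 0.39, 0.14, 1.28 and 1.47 in week 2 and at 0.26, -0.03 and -0.19 on the 3 arrays of week 1 with a value, and did not pass (0.74 ± 0.39, adjusted p = 0.175). In the carnitine system, Cpt1a (-0.08), Cpt2 (0.16) and Slc25a20, the carnitine-acylcarnitine carrier (0.41), were not called.

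In the spiral, Acadvl stood at 0.31, 0.16, 0.33 and 0.22 in week 2, against -1.21, -0.45, -0.24 and -0.20 in week 1. The weeks did not overlap (0.78 ± 0.19, 1.72-fold, adjusted p = 0.0329). Hadha stood at 0.08, 0.34, 0.19 and 0.27 in week 2, against -1.47, -0.50, -0.01 and -0.31 in week 1, again without overlap (0.79 ± 0.21, 1.73-fold, adjusted p = 0.0371). The lowest of these values, for both genes, was on CCH 1 week replicate 1. Acaa2 stood at -0.06, 0.09, 0.14 and -0.16 in week 2, against -0.82, -0.55 and -0.92 in week 1, where CCH 1 week replicate 1 gave no value (0.78 ± 0.18, 1.72-fold, adjusted p = 0.0304).

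Acads went the other way. It was at -0.64, 0.05, -0.48 and -1.13 in week 2, against 0.36, 0.54, -0.27 and 0.10 in week 1. A CCH array of week 2 lay inside the range of week 1, and the difference was -0.73 ± 0.22 (SE, 0.603-fold, adjusted p = 0.0482). Acadm, the dehydrogenase for medium chains (0.65 ± 0.37, without CCH 1 week replicate 1, which gave no value), and Acadl, for long chains (0.38 ± 0.21), were not called.

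Of the other beta oxidation genes, Echs1, the enoyl-CoA hydratase (0.75, adjusted p = 0.0546), Hadh (0.65, adjusted p = 0.0543), Hadhb (0.46, adjusted p = 0.0679) and Etfdh, which hands electrons from the flavoprotein to ubiquinone (0.94, adjusted p = 0.0642), lay just outside the threshold. In each of these 4 all arrays of week 2 were above all of week 1. Not called either were the auxiliary isomerase Eci1 (0.34), the dienoyl reductase Decr1 (0.46), the flavoprotein subunits Etfa (0.50) and Etfb (-0.43), and the mitochondrial thioesterase Acot2 (-0.49). Acot2 was the only gene of the 34 with all arrays of week 2 below those of week 1.

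On the side of pyruvate, Pdha1, the alpha subunit of pyruvate dehydrogenase, stood at 0.69, 0.62, 0.97 and 1.13 in week 2, against -0.95, -0.10, 0.26 and 0.02 in week 1. All week 2 arrays were above all week 1 arrays (1.05 ± 0.29, 2.07-fold, adjusted p = 0.0402). Dld, with the largest difference of the 34, stood at 0.90, 0.57, 1.11 and 1.1975 in week 2, against -0.94, -0.06, 0.25 and 0.28 in week 1 (1.06 ± 0.28, 2.09-fold, adjusted p = 0.0371). Their partners Pdhb, the beta subunit (0.62, adjusted p = 0.239), and Dlat, the acetyltransferase core (0.46, adjusted p = 0.127), were not called, nor was Pcx, the pyruvate carboxylase that refills the cycle (-0.63, adjusted p = 0.084).

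Within the cycle, Idh3b stood at 0.38, 0.31, 0.46 and 0.35 in week 2, against -0.92, -0.28, -0.38 and -0.61 in week 1 (0.92 ± 0.23, 1.89-fold, adjusted p = 0.0333). The weeks did not overlap. Idh3g stood at 0.16, 0.16, -0.26 and 0.13 in week 2, against -0.69, -0.90, -0.62 and -0.31 in week 1, again without overlap but close for CIH 2 weeks replicate 1 and CIH 1 week replicate 2 (0.68 ± 0.19, 1.60-fold, adjusted p = 0.0421). Sucla2, the ADP-forming succinyl-CoA synthetase subunit whose promoter is shown above, stood at 0.52, 0.38, 0.56 and 0.92 in week 2, against -0.85, -0.21, -0.13 and 0.00 in week 1 (0.90 ± 0.22, 1.86-fold, adjusted p = 0.0317). Idh3a, the catalytic subunit, was just outside the threshold (0.73 ± 0.23, adjusted p = 0.0515). Not called were Cs, the citrate synthase (0.52), Mdh2, the malate dehydrogenase (0.21), Ogdh (0.15), Dlst (-0.12) and Idh2, the NADP-dependent isocitrate dehydrogenase (-0.28).

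**Figure D4:**
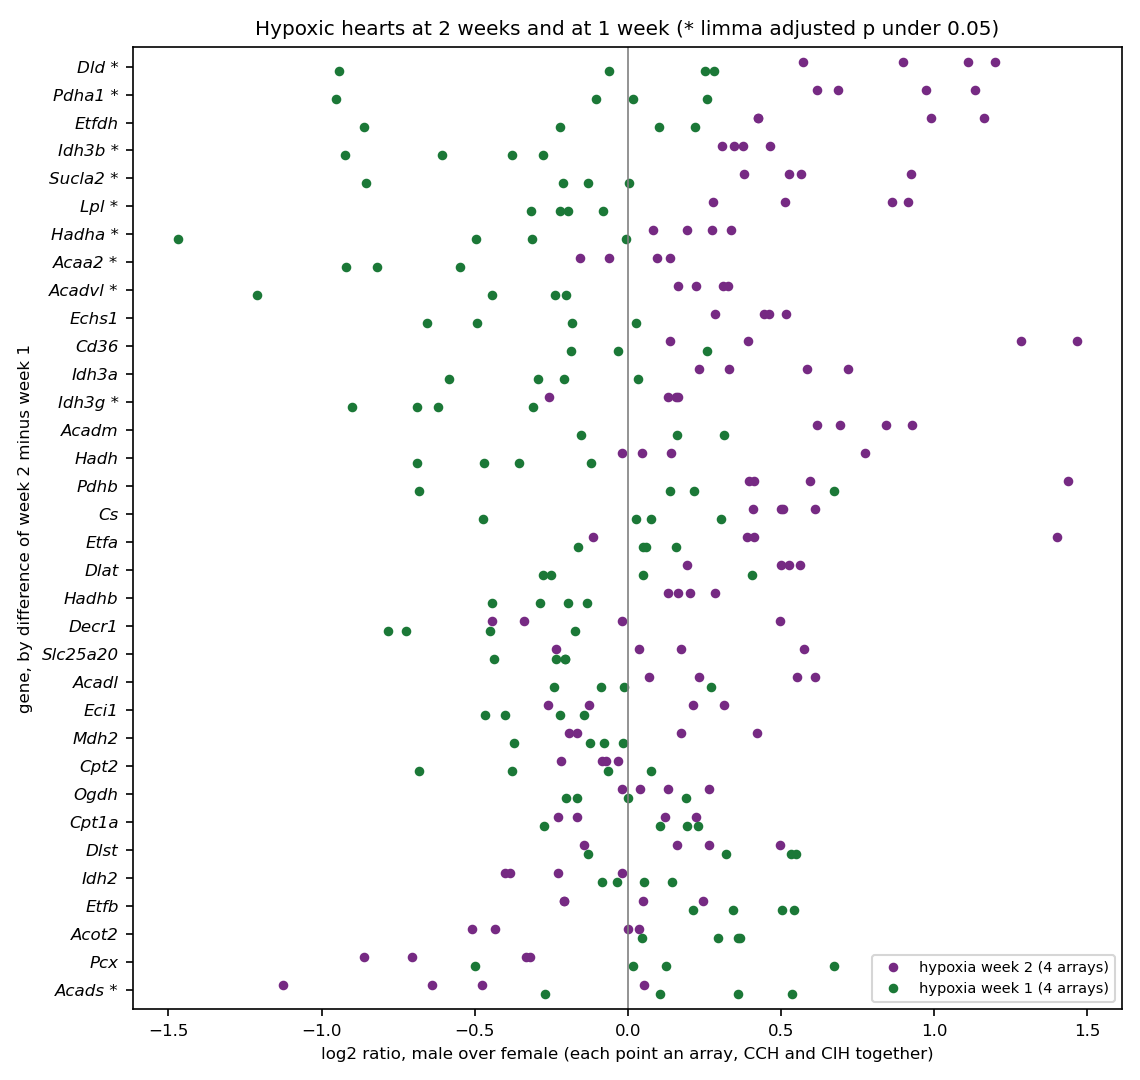
Log2 ratio, male over female, of each of the 34 genes on the arrays of hypoxic hearts (CCH and CIH together) at 2 weeks (purple) and 1 week (green), ordered by the difference; a star marks a limma adjusted p under 0.05. For 16 genes the purple points all lie right of the green ones, and for Acot2 they lie left.

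In 16 of the 34 genes (47.1%) the arrays of week 2 lay wholly above those of week 1, against 13.2% of all units, and in 1 (2.94%) wholly below, against 10.7%. Without CIH 1 week replicate 1, whose labels conflict, these counts were 19 (55.9%, against 20% of all units) and 3 (8.82%, against 21.7%). The count of called genes was 0 without CCH 1 week replicate 1, without CCH 2 weeks replicate 1, without CIH 1 week replicate 2 or without CIH 2 weeks replicate 2. It was 2 without CCH 2 weeks replicate 2 or CIH 2 weeks replicate 1, and 6 without CCH 1 week replicate 2. Without CIH 1 week replicate 1 it was 3, as it was when that array was counted as CCH at 2 weeks. It was 2 without both arrays of conflicting labels, where Acaa2 (0.87, adjusted p = 0.0378) and Idh3b (0.98, adjusted p = 0.0418) were called and the other 8 had adjusted p-values from 0.0531 to 0.0745. It was 1 after scaling all arrays to equal spread, and 0 in an additive model of condition and duration, in which the week effect is shared with controls. The medians without any array in turn ran from 0.36 to 0.67 for the fatty acid genes and from 0.44 to 0.66 for the citric acid cycle genes.

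Markers of cell types were set beside the same step. Of 15 cardiomyocyte markers listed, 2 could be tested, Pln and Casq2, and both had positive differences (median 0.50, none called). Their median difference was -0.96 in controls, both negative, and 1.45 for the hypoxic step against the control step, both positive. Of 11 erythroid markers listed, 5 could be tested and all 5 had negative differences between 2 weeks and 1 week (median -1.47), of which Hba-x (-1.31) and Slc4a1 (-1.51) were called lower. On single arrays the erythroid median was -2.01, 0.23, -1.34 and -2.37 in week 2 of hypoxia and 0.47, 0.24, -0.74 and -0.03 in week 1. Of other markers, the adipocyte hormone gene Lep fell by 0.96, and both adipocyte markers tested were negative. Among the 6 fibroblast markers tested 2 were positive and 4 negative (median -0.02), and Dcn, called at 0.98, was the only one called. The 5 leukocyte and macrophage markers had 3 positive and 2 negative differences (median 0.08, none called), while all 4 endothelial markers were negative and none of them was called. On the arrays of week 2, in the order of the erythroid medians, the fatty acid medians were 0.02, 0.12, 0.39 and 0.22. The citric acid cycle medians there were 0.31, 0.32, 0.48 and 0.49. The part of these cells in the fuel genes' difference was not tested.

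Taken separately, 0 of 34 genes were called by limma between weeks in CCH (0.0487% of all units called) or in CIH (0.0292%), with 14 and 12 at an unadjusted p under 0.05 (27.2% and 18.5% of all units). In CCH the median difference was 0.26 for the fatty acid genes and 0.68 for the citric acid cycle genes, and in CIH 0.49 and 0.46. Ratios of control hearts ran the opposite way between the same weeks, with 32 of 34 differences negative and medians of -0.43 and -0.51. Of these genes 0 were called (0% of all units) and 6 had an unadjusted p under 0.05 (5.4% of all units). The control step has 2 arrays a side. Control 1 week replicate 2 and control 2 weeks replicate 1, whose code is in doubt, hardly differed (fatty acid -0.08 and -0.10, citric acid cycle -0.06 and -0.12). The step lies mostly in control 1 week replicate 1 (0.41 and 0.28) and control 2 weeks replicate 2 (-0.61 and -0.70). The next test rests on the same control arrays. The test of the hypoxic step against the control step called 0 genes (0% of all units), and 23 of 34 (67.6%) had an unadjusted p under 0.05, against 20.4% of all units. Its largest values were in Dld (2.01 ± 0.49, adjusted p = 0.192), Cd36 (2.00 ± 0.62, adjusted p = 0.200) and Pdha1 (1.95 ± 0.50, adjusted p = 0.192). These 4 comparisons were added after the data were seen.

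At 2 weeks itself, where hypoxic arrays were high and control arrays low, 22 of 34 genes (64.7%) had an unadjusted p under 0.05 for CIH minus control, against 22.7% of all units, and 12 (35.3%) for CCH minus control, against 9.38%. Limma's adjusted threshold was passed by 0 of them, with 0.00974% and 0.0195% of all units called. The median differences for the fatty acid and citric acid cycle genes were 0.65 and 0.92 for CIH and 0.46 and 0.65 for CCH. The citric acid cycle median was 1.25 for CIH and 0.98 for CCH without control 2 weeks replicate 1, whose code is in doubt, and 0.54 and 0.34 without control 2 weeks replicate 2. Of the cardiomyocyte markers 2 of 2 were positive, with a median of 1.22 for CIH and 0.84 for CCH. The erythroid median was -1.55 for CIH (4 of 5 negative) and -0.84 for CCH (5 of 5 negative). Fibroblast markers were positive in 6 of 6 for CIH (median 0.36) and in 5 of 6 for CCH (median 0.05). None of these markers was called, and their part in the fuel genes' difference was not tested. Lpl had the smallest p in both, at 1.61 ± 0.34 for CIH (adjusted p = 0.117) and 1.11 ± 0.34 for CCH (adjusted p = 0.498). The largest differences were in Cd36 for CIH and in Acadm for CCH (1.36 ± 0.46, adjusted p = 0.498). Cd36 was at 1.28 and 1.47 on CIH arrays of 2 weeks, against -0.37 and -1.18 on control arrays (2.15 ± 0.49, adjusted p = 0.117). At 1 week the CCH difference was negative in 28 of 34 genes (medians -0.36 and -0.50), with 0 called (0% of all units) and 9 at an unadjusted p under 0.05 (6.15% of all units), with the smallest p in Hadha (-1.03 ± 0.30, adjusted p = 0.711). CIH minus control at 1 week was also negative in 28 genes, with 0 called (0%) and 1 at an unadjusted p under 0.05 (2.34% of all units). Its medians were -0.28 and -0.16, and -0.34 and -0.19 without CIH 1 week replicate 1. At 4 weeks CCH had 1 and CIH 2 genes at an unadjusted p under 0.05 (15.1% and 8.14% of all units), and 0 called in either (0% of all units for both). The CIH medians at 4 weeks were 0.13 and 0.16, but -0.16 and -0.29 without the array labelled CIH 4 weeks replicate 1.

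Between 4 weeks and 1 week of hypoxia limma called 0 of 34 genes (0% of all units), 1 had an unadjusted p under 0.05 (13% of all units), and the medians were 0.05 and 0.17. Decr1, which reduces the double bonds of unsaturated chains, stood at -0.03, 0.23, 0.37 and -0.11 in week 4, against -0.17, -0.78, -0.72 and -0.45 in week 1 (0.65 ± 0.23, adjusted p = 0.334). Dld (0.55 ± 0.28) and Hadh (0.37 ± 0.21) followed. Without the array labelled CIH 4 weeks replicate 1 Decr1 differed by 0.53 (adjusted p = 0.94), Dld by 0.21 and Hadh by 0.26. The same step in controls called 0 genes (0% of all units), with 29 of 34 differences negative and 4 at an unadjusted p under 0.05 (4.47% of all units). An F test of whether the hypoxia difference changed with duration called 0 genes for CCH and for CIH (0% of all units for both). Unadjusted, 14 genes passed for CCH, with the smallest p in Acadvl (adjusted p = 0.274), and 15 for CIH, with the smallest p in Cd36 (adjusted p = 0.46), against 16.4% and 8.79% of all units.

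Subunits of a complex and enzymes of consecutive steps were set against each other over the 18 arrays in 13 pairs, of which 10 had a Benjamini-Hochberg adjusted permutation p under 0.05 for Pearson's r (100000 permutations, two-sided). The permutations shuffled the arrays freely, although the arrays share their 9 groups and array-wide swings. These p-values do not allow for that and can be too small, so r is also given within groups. No share of unrelated pairs was computed to set beside the 10. The rank tells how the partner stood among all units by correlation with the first gene. Without the 3 arrays in doubt r moved by less than 0.06 in each of the 13 pairs. Pdha1 and Dlat, the first and the core enzyme of the pyruvate dehydrogenase complex, had r = 0.89 and rho = 0.89 (p = 1e-05, the smallest these permutations give, adjusted 6.5e-05), with r = 0.84 without the 2 arrays farthest from the median and 0.79 within groups. Dlat ranked 94 of 10270 units by its correlation with Pdha1. Pdha1 and Pdhb had r = 0.83 and rho = 0.84 over 17 arrays (adjusted p = 0.00026), with 0.74 without the farthest arrays, 0.88 within groups and rank 304. Idh3a and Idh3g had r = 0.71 and rho = 0.77 (adjusted p = 0.0032), with 0.51 within groups and rank 702. Ogdh and Dld had r = 0.56 and rho = 0.61 (adjusted p = 0.024), with 0.72 within groups and rank 978. For Dlst and Dld r was 0.55 and rho 0.41 (adjusted p = 0.028), with 0.91 within groups, 0.28 without the farthest arrays and rank 249.

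Idh3a and Idh3b gave r = 0.87 and rho = 0.89 (adjusted p = 6.5e-05), with 0.86 without the farthest arrays, 0.87 within groups and rank 64. Idh3b and Idh3g gave r = 0.83 and rho = 0.83 (adjusted p = 0.00026), 0.46 within groups and rank 152. Hadha and Hadhb, which share the promoter region printed above, gave r = 0.67 and rho = 0.79 (adjusted p = 0.004), with r = 0.88 without the farthest arrays and standing at 0.17 within groups. Hadhb ranked 544 of 10270. Etfa and Etfdh had r = 0.66 and rho = 0.61 (adjusted p = 0.0049), with 0.47 without the farthest arrays, 0.69 within groups and rank 443. Cpt2 and Slc25a20 had r = 0.52 and rho = 0.49 (adjusted p = 0.032), with 0.54 within groups and rank 475. The flavoprotein's own subunits Etfa and Etfb did not pass (r = -0.13, rho = -0.09, adjusted p = 0.66, 0.37 within groups), nor did Cpt1a and Cpt2 (r = -0.11, rho = -0.13, adjusted p = 0.66, -0.16 within groups) or Ogdh and Dlst (r = 0.31, rho = 0.28, adjusted p = 0.24, 0.60 within groups).

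**Figure D5:**
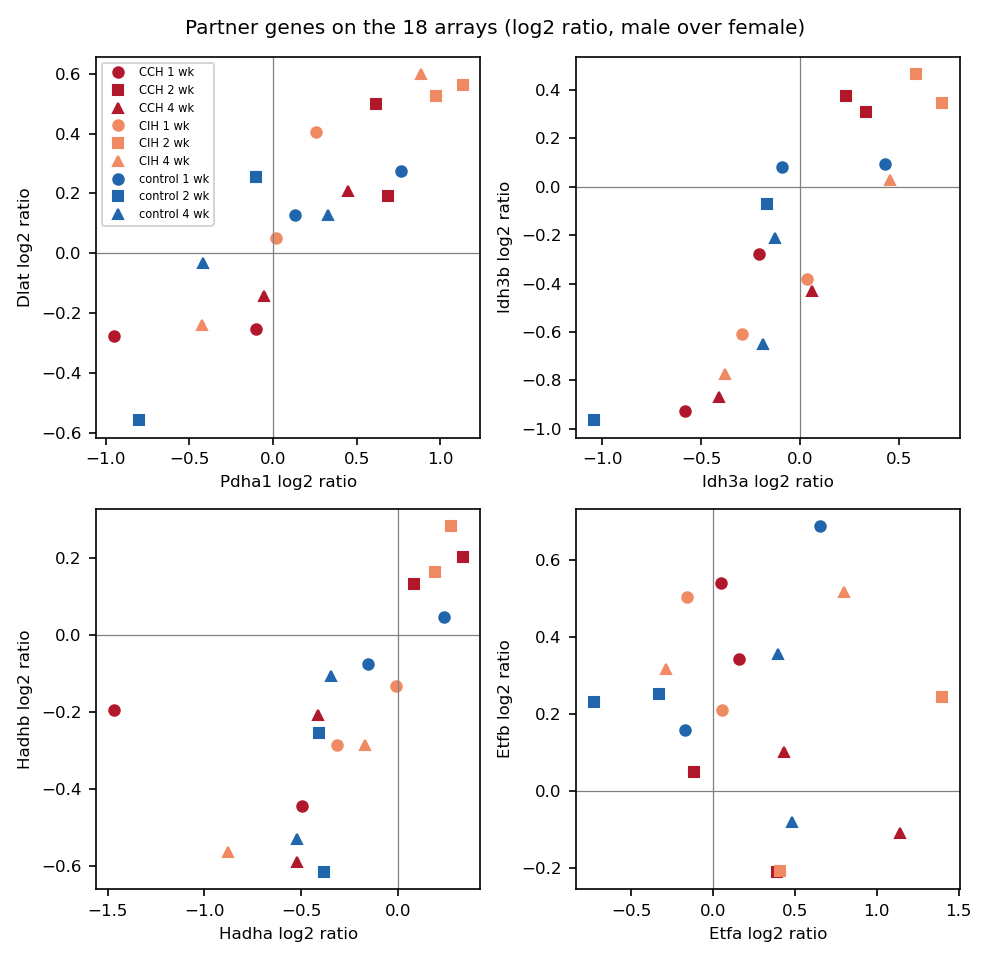
Log2 ratios, male over female, of 4 pairs of partner genes on the arrays (colour, CCH, CIH or control; circle, square and triangle, 1, 2 and 4 weeks). Pdha1 and Dlat and Idh3a and Idh3b lie along a line, Hadha and Hadhb do so apart from the array with Hadha at -1.47, and Etfa and Etfb show no line.

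The number of spots behind a gene ran from 1 to 6, and the spots of a gene can be compared in the step between 2 weeks and 1 week of hypoxia. The 5 spots of Pdha1 gave 0.81 to 1.14 and the 4 of Idh3b 0.76 to 1.13, all positive. Idh3a had 6 spots from 0.08 to 1.33 and Sucla2 had 2 at 0.45 and 1.14. The 3 spots of Etfa ranged from -1.04 to 1.07, the 5 of Ogdh from -0.31 to 0.78, the 2 of Dlst from -0.47 to 0.30 and the 3 of Cpt1a from -0.32 to 0.14, so these 4 genes' averages mix signs. Acadvl, Hadha, Acaa2, Lpl, Dld and Acads rest on 1 spot each.

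Other genes of the same pathways were taken from lists. Of 54 further genes of fatty acid handling, 32 could be tested and 3 were called higher at 2 weeks than at 1 week of hypoxia, with 0 lower, against 4.67% higher and 6.25% lower of all units. These were the lipid droplet protein gene Plin2 (1.12, adjusted p = 0.0249), the isomerase Eci2 (0.82, adjusted p = 0.0354) and the thioesterase Acot9 (0.65, adjusted p = 0.0443), and the list's median was 0.22. Of 37 further citric acid cycle and pyruvate genes, 20 could be tested and 5 were called higher, with 0 lower and a median of 0.39, against the same shares of all units. They were Sdhd, an anchor subunit of succinate dehydrogenase (0.96), the cytosolic isocitrate dehydrogenase Idh1 (0.88), the malic enzyme Me1 (0.88), Pdk4, a kinase that switches pyruvate dehydrogenase off (0.84), and the glutamate dehydrogenase Glud1 (0.62).

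Over all arrays, where 8.99% of all units were called higher and 18.7% lower, 4 of the 32 fatty acid handling genes were called higher and 9 lower. Among the lower were Gpihbp1, which anchors lipoprotein lipase to capillaries (-0.39, adjusted p = 0.000722), Hsd17b10 (-0.42, adjusted p = 0.00102), Plin2 (-0.35, adjusted p = 0.0035) and Acad8 (-0.33, adjusted p = 0.0042), which had the smallest p-values. Among the 20 citric acid cycle and pyruvate genes 2 were called higher and 2 lower, Lias (-0.32), Pdp2 (-0.28), Pdk4 (0.24) and Got2 (0.20). Of 27 transcriptional regulators of these pathways 14 could be tested, and over all arrays the mitochondrial transcription factor gene Tfam was called higher (0.27, adjusted p = 0.00135) and the receptor gene Rxrb lower (-0.25, adjusted p = 0.00193). Between 2 weeks and 1 week of hypoxia 0 of the 14 regulators were called, with a median of 0.09.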

How the data were processed

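Each array held male and female heart cDNA, and the deposited values were log2 ratios per spot. On the linear scale they average 1 on every array, as found from the values. Background correction, spot filter and normalization are not given in the sources used here. Of 28704 spots, 18511 carried 1 symbol, and 2289 had no value. Arrays were centred on their median and spots of a symbol averaged. A unit had to have 1 or more values in every group (10272 units, 7577 on all arrays). The fit was limma's (version 3.58.1, R 4.3.3) to the means of 9 groups, with two-sided tests moderated by eBayes (prior SD 0.269 on 5.95 degrees of freedom). P-values were adjusted by Benjamini-Hochberg over all units, with a threshold of 0.05. SE is that of the fit. Counts of arrays refer to each array against the mean of the groups it is set against, or to the sign of a ratio. Correlations used 100000 permutations, which shuffled arrays freely across groups. On simulated data for hypoxia at 2 weeks against 1 week over 10272 units, 4% of log2 changes of 0.5 and 54% of changes of 1 were called. The simulation held 100 units of each change, with noise independent between units. It gave 59 calls, against 1122 in the data, so these shares do not carry over to the real test. Promoters were those of RefSeq GRCm38.p6, and all 34 symbols matched its gene table. The deposited log2 ratios carry no depth, and the number of arrays limits the precision. Values per array are given for genes past the threshold in a contrast of conditions or durations, or else for the smallest p-values (5 over all arrays, 3 per contrast), extended after their values were seen to all genes called over all arrays and to Cd36. The genes and lists were chosen with earlier results of these data known. Alternatives were other scalings, unit filters, 1 spot per gene, an additive model, a replicate block, regrouping or leaving out doubtful arrays, and leaving out each array. Figures were drawn with matplotlib 3.10.9. The array overlaps and the correlations without arrays of doubtful labels were added after the data were seen.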

Additional observations from a re-analysis of the deposited data

Results flagged for a closer look

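In 108 groups of arrays, each a gene or a pathway median in a condition, 3 held an array far from the others. Chance alone gives about 1 in 20, a larger share than this. Dlat, the core of the pyruvate dehydrogenase complex, was at -0.5583 on control 2 weeks replicate 2, where the other control arrays lay between -0.03 and 0.28. Dlst, the core of the oxoglutarate complex, was at -0.5451 on the same array, where the other control arrays lay between -0.02 and 0.29. On that array 13 of the 14 citric acid cycle genes were negative with a median of -0.70, so Dlat and Dlst lay above the pathway's median there. Idh2, the NADP-dependent isocitrate dehydrogenase, was at 0.4107 on CIH 4 weeks replicate 2, where the other CIH arrays lay between -0.27 and -0.02.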

How the results depend on the processing

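The count of called genes in hypoxia at 2 weeks against 1 week was 10, but 1 after scaling arrays to equal spread. For hypoxia at 2 weeks against 1 week it was 3 with CIH 1 week replicate 1 regrouped and 0 in the additive model. The additive model shares its week effect with controls. Its medians for hypoxia at 2 weeks against 1 week were 0.1176 for the fatty acid and 0.1847 for the citric acid cycle genes. The count for hypoxia at 2 weeks against 1 week was 2 without the 2 arrays of conflicting labels. Leaving out 1 array moved it between 0 and 14. For the mean ratio of CCH arrays the count of 4 was 1 with scaled arrays, 1 in the additive model and 2 without the conflicting labels, and 1 to 4 without 1 array. For CIH arrays the count of 2 was 1 with quantile normalization, scaled arrays, units on all arrays, the additive model, the regrouping and without the conflicting labels, and 1 to 10 without 1 array. Control arrays gave 1 with quantile normalization. Over all arrays the count was 7 to 16 without 1 array, CIH minus control 0 to 2, and CCH minus CIH 0 to 1. Without the 2 arrays of conflicting labels the citric acid cycle medians were 0.9813 for CCH and 1.2544 for CIH minus control at 2 weeks and -0.8303 for controls at 2 weeks against 1 week, and the medians of the hypoxic step against the control step 1.2878 and 1.4993. With 1 spot per gene the last citric acid cycle median was 0.9114, and the fatty acid median of CCH at 2 weeks against 1 week 0.7036. Without 1 array, the citric acid cycle medians ran from -0.7091 to -0.1903 for CCH minus control at 1 week, 0.3383 to 0.9813 for CCH and 0.5443 to 1.2544 for CIH at 2 weeks, -0.288 to 0.6377 for CIH at 4 weeks, -0.8303 to -0.2088 for the control step and 0.8765 to 1.481 for the hypoxic against the control step. The fatty acid medians ran from -0.1616 to 0.414 for CIH minus control at 4 weeks and 0.7006 to 1.2201 for the hypoxic against the control step. Why these counts and medians moved between settings was not tested. A group left with 1 array is taken to vary like the others. Over all arrays, Acaa2, Idh3g, Acadvl, Cpt2, Hadha and Hadhb kept their call under every alternative run. No gene named past a threshold changed direction under any alternative run.

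Replicates were numbered by the letter A or B of their titles, but CCH 1 week replicate 1 and CCH 2 weeks replicate 1 had no letter. Deviations of arrays with the same replicate number had no common direction. Their correlations over 36 pairs of groups ran from -0.55 to 0.45 (median -0.04, 15 over 0.1). Single pairs of groups thus did deviate together or against each other, and whether such arrays shared a batch was not tested. With a replicate block the counts were 12 over all arrays and 11 for hypoxia at 2 weeks against 1 week, and 4, 2 and 0 for CCH, CIH and control arrays.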
